A study of Mus musculus with 192 samples.

Results

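Accessible chromatin at the genes of the MHC class II pathway was described from a mixed Pi-ATAC sample of 4T1 cells and splenocytes. Pi-ATAC sorts fixed, protein-stained cells singly after transposition and reads open chromatin from each well. The 4T1 line is a mouse breast cancer line, sorted here for the epithelial protein EpCAM, and the splenocytes came from the spleen of an MMTV-PyMT mouse that had no tumour, sorted for the leukocyte protein CD45. MMTV-PyMT animals carry a transgene for a viral oncoprotein driven by a promoter active in mammary epithelium. Both groups were fixed and transposed as 1 mixture, with 96 cells each by sample title, although source names give 95 and 97 and disagree with the title for 1 cell. The data analysed were 1 list of 50000 accessible windows of 500 bp on mm9, read from its peak names as calls on all 192 cells pooled. The methods describe calling per condition, on summed cells, and leave this reading unsettled. On it there were no replicates, no read depth and no test between the groups, and a window cannot be assigned to either cell population.

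The genes described are 9 of the 22225 protein-coding genes of the annotation, namely Ciita, Cd74, H2-Aa, H2-Ab1, H2-Eb1, H2-Oa, H2-Ob, H2-DMa and H2-DMb1. MHC class II molecules are pairs of an alpha and a beta chain that display peptides from endocytosed proteins to CD4 T cells. In the spleen they are carried mainly by B cells, dendritic cells and macrophages, and most epithelial cells make them only after interferon gamma. Their promoters share an upstream module of X and Y boxes, bound by the RFX complex, CREB and NF-Y, to which the coactivator CIITA is recruited. A window was counted for a gene when it overlapped the gene body or the 10 kb on either side, and as a promoter window when it lay within 1 kb of any annotated transcript start of the gene.

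The X and Y boxes are shown because most of the class II genes here have a match to them. The deposited windows either cover the matches or leave them uncovered. The stretches below were read from the mm9 genome along each gene's own strand, 5′ to 3′. Capitals mark an X box word, CNNGNNAC, and a Y box word, TGATTGG, with 20 to 32 bases between them. That wording is called relaxed below for its X box. It was set after the members' promoters had been seen, so their matches to it are a description. For H2-DMb1, whose pair lies in the transcribed leader, only the X box and the bases beside it are given.
H2-Aa (chr17:34424810-34424854, minus strand): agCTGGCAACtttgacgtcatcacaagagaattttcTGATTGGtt
H2-Ab1 (chr17:34400090-34400133, plus strand): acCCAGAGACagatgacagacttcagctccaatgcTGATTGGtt
H2-Eb1 (chr17:34442716-34442759, plus strand): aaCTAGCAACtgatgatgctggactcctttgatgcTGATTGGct
H2-Oa (chr17:34229243-34229287, plus strand): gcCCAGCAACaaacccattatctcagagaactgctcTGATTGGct
H2-Ob (chr17:34375758-34375799, plus strand): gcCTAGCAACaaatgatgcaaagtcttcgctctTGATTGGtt
H2-Eb2 (chr17:34462483-34462526, plus strand): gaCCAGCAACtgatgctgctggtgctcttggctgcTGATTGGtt
H2-DMb1 (chr17:34290037-34290066, plus strand): acCTAGTAACtgatgatgctaggctgattc

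The 9 genes held 32 of the 50000 windows, and 5 of these windows lay in the regions of more than 1 of the genes. A promoter window was present at 5 of the 9, namely H2-Aa, H2-Eb1, H2-Oa, H2-DMa and Cd74, and absent at Ciita, H2-Ab1, H2-Ob and H2-DMb1. Over all protein-coding genes, 48.3% had a promoter window (10724 of 22225), so the count of 5 of 9 was near the background. CpG content set a different background. The observed-to-expected CpG ratio within 500 bp of the outermost start ran from 0.12 to 0.371 in the members (median 0.19), against a median of 0.55 in all protein-coding genes. Among the 6201 genes with a ratio in the members' range, 17.0% had a promoter window (1057 genes).

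All 9 genes had at least 1 window away from their own starts, against 54.1% of protein-coding genes (12033 of 22225). That count rested on the flanks, since without the 10 kb on either side 3 of the 9, Ciita, Cd74 and H2-Ab1, had such a window. Of the 32 windows, 9 were promoter windows of the members, 2 were promoter windows of a neighbouring class II gene (H2-DMb2 and H2-Eb2) and 21 lay at no protein-coding or long non-coding start. By the models of the member with the nearest start, the summit, the centre of the window, lay in an intron in 12 windows. It lay in a coding exon in 4, in a UTR in 3 and outside that member in 13, where other genes were not checked. The members had 1 to 8 windows each with a median of 4, whereas the median protein-coding gene had 2 and 31.8% had none. Per 10 kb of region, the median was 1.14 windows in the members and 0.315 in all protein-coding genes.

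**Figure D1:**
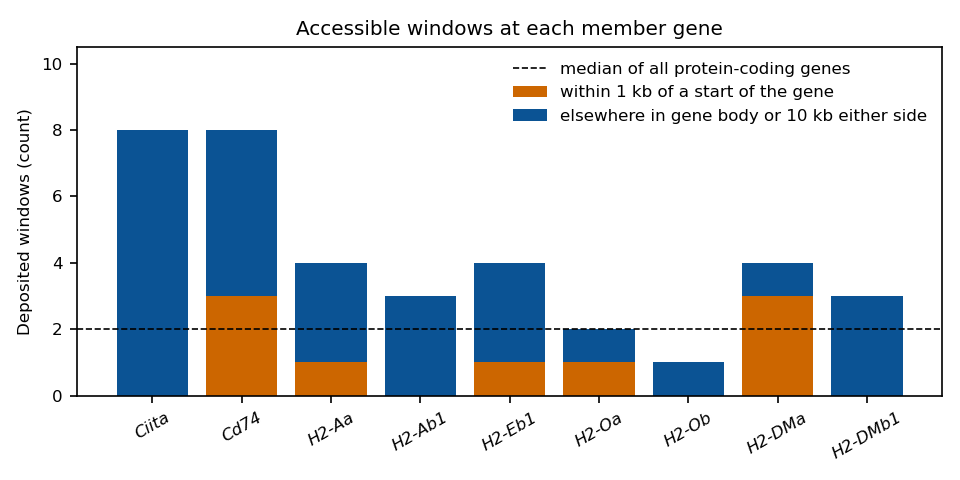
Number of deposited windows at each of the 9 genes, split into windows within 1 kb of a transcript start of the gene (orange) and the others in the gene body or 10 kb on either side (blue), from 1 pooled list without error bars. The dashed line is the median of all protein-coding genes, 2 windows, and Ciita and Cd74 stand highest with 8 each, of which 0 and 3 were at a start.

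The member windows were poor in CpG. Promoter windows of the members had a median CpG ratio of 0.144 and a median GC content of 51.4%, whereas the 17303 windows at any protein-coding start had 0.699 and 59.4%. The 23 other member windows, at 0.207, were close to the 32697 windows of the list away from coding starts, at 0.214. No member window came from a call with several summits, a class that made up 18.2% of the list.

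Ciita, the master coactivator of class II transcription, spans chr16:10480237-10527657 and has 5 distinct starts that belong to its alternative promoters. None of the starts had a window within 1 kb, and all 8 windows lay downstream of the last start. The nearest was an intron window 6486 bp past that start. For the outermost start the nearest summit, 14626 bp upstream, was outside the region. Its central 300 bases (chr16:10496212-10496511) are shown because it is the listed window nearest to 4 of the 5 Ciita starts, and capitals mark the RUNX word on the opposite strand.
Ciita intron window: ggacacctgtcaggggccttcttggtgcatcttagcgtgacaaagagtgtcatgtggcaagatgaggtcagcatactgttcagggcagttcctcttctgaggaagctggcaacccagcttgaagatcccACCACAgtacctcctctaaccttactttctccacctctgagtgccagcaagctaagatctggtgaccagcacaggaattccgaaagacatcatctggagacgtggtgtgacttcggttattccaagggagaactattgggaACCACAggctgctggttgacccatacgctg

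The RUNX word sat 18 bp before and 123 bp after the summit of that window. Measured from the outermost start, the next Ciita windows had their summits at 22960 and 28584 bp, the latter in a coding exon, and then at 30340 and 30692 bp, an overlapping pair. Further ones followed in an intron at 35449 bp and in a UTR at 38467 bp, and the last lay outside the gene at 52498 bp. For these final windows at 38467 and 52498 bp the nearest coding start was that of Dexi, the neighbouring gene, and not of Ciita. The AP-1 word TGANTCA occurred in 3 of the 8 windows, with 4 copies at 3 distinct positions, since the overlapping pair shares a copy. The RUNX word TGTGGT occurred in 3 windows.

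Peak calls are numbered along each chromosome, and 38% of the 118153 numbers were kept in the list. Around the outermost Ciita start, 5 consecutive numbers were missing from a gap of 30.3 kb between listed windows, a gap that contained all 5 starts. These calls were not in the list and their positions within the gap are unknown. From the first to the last listed Ciita window, 8 of 12 numbered calls were listed. A further 8 unlisted calls, the 5 around the starts included, fell in gaps that cross the edges of the region. The Ciita region, at 1.19 windows per 10 kb, was matched or exceeded by 12.8% of protein-coding genes.

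H2-Aa and H2-Ab1 encode the alpha and the beta chain of the I-A molecule and lie tail to tail, so that windows inside H2-Ab1 also fall in the region of H2-Aa. The H2-Aa promoter window had its summit 106 bp upstream of the outermost start and contained the whole X-Y stretch printed above, whose Y box ended 40 bp upstream of the start. The summit lay 46 bp from the centre of the pair. The same stretch of H2-Aa contains the X2 word TGACGTCA, a CREB site sequence, centred 39 bp from the summit. A further H2-Aa window lay 8174 bp upstream of the gene, on the side of H2-Eb1.

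H2-Ab1 had an X-Y pair with the Y box ending 23 bp upstream of the start, and no window over it. The nearest summit was 1830 bp away. Here, unlike at Ciita, no call number was missing from the 5.78 kb gap around the start, so no further numbered call lay in it, although the extent of a call beyond its window is not in the list. The listed windows were an overlapping pair with summits 1787 bp into the gene, in a coding exon, and 2157 bp into it, in the intron that follows. Another lay 4496 bp upstream, between H2-Ob and H2-Ab1. The exon window was the richest in GC of all 32, at 67%, with a CpG ratio of 0.856. Its central 300 bases (chr17:34401791-34402090) are shown because this window, and not the promoter, is the call closest to the start, and capitals mark an EBF word, TCCCNNGGGA, 57 bp from the summit. The printed letters are those of the reference strain, and the alleles of the sampled cells were not analysed here.
H2-Ab1 exon window: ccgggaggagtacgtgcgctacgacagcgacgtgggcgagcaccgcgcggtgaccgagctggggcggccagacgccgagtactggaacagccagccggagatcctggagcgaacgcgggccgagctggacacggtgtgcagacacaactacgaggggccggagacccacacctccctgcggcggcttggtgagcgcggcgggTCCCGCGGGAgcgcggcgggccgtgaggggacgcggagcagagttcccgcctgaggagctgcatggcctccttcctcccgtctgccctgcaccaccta

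H2-Eb1 encodes the beta chain of the other classical molecule, I-E. Its promoter window covered the start, with the summit 51 bp downstream of the outermost start, and contained the X-Y pair, whose Y box ended 71 bp upstream. A non-coding gene, Gm20513, also has a start near this window. The next window upstream, 5088 bp before the start, lay between H2-Aa and H2-Eb1 and contained the interferon-stimulated response element word GAAANNGAAA on the opposite strand, 66 bp before the summit. Its central 300 bases (chr17:34437590-34437889) are given with that word in capitals, because only this window and the intron window of H2-Ab1 had the word among the 32.
H2-Eb1 upstream window: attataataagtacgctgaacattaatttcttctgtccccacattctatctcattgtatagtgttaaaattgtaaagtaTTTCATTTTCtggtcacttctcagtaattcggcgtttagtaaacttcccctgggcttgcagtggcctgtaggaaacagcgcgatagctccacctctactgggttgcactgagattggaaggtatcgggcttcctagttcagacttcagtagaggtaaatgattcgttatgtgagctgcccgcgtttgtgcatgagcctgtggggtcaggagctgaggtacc

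At the far end of the H2-Eb1 region, 19539 bp past the start, a window lay 243 bp upstream of H2-Eb2, a relative of H2-Eb1, and contained its X-Y pair. Among the 3 class II relatives, H2-Eb2 and H2-DMb2 had a promoter window and H2-Ea-ps, the I-E alpha pseudogene of the reference strain, had no window.

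H2-DMa and H2-DMb1 encode the chains of H2-DM, which catalyses the exchange of the invariant chain remnant for peptide. H2-DMa had 3 promoter windows. Their summits lay 496 bp upstream of the start, 276 bp downstream of it in a UTR, and 227 bp upstream of a retained-intron transcript start inside the gene. No X-Y pair in either wording was found within 1 kb of the H2-DMa start, although the window at 276 bp held the Y box word TGATTGG alone. H2-DMb1 had no promoter window and its X-Y pair ended 62 bp downstream of the annotated start. The nearest summit was 9925 bp upstream of H2-DMb1, at the promoter of its paralogue H2-DMb2, and the others were beyond the end of the gene, 11543 and 16226 bp past the start. In the 1 kb around the H2-DMb1 start, 16.1% of 50-base words occurred again within 1 Mb of the class II genes, against 2.21% or less at the other class II members, and the part of repeated sequence in the missing window was not tested. The numbering left 2 unlisted calls in the 21 kb gap around this start.

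H2-Oa and H2-Ob encode H2-O, which modulates H2-DM and is known from B cells. The H2-Oa window had its summit in an intron 299 bp past the start, and its edge fell just short of the X-Y pair, whose last base was the first transcribed base. Another H2-Oa window lay 6876 bp upstream. H2-Ob had the lowest number of windows of the 9 genes, with 1, which was the window shared with H2-Ab1. Its X-Y pair, ending 51 bp upstream of the start, was 13635 bp from the nearest summit, and 1 call number was missing from the 33 kb gap around the start.

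**Figure D2:**
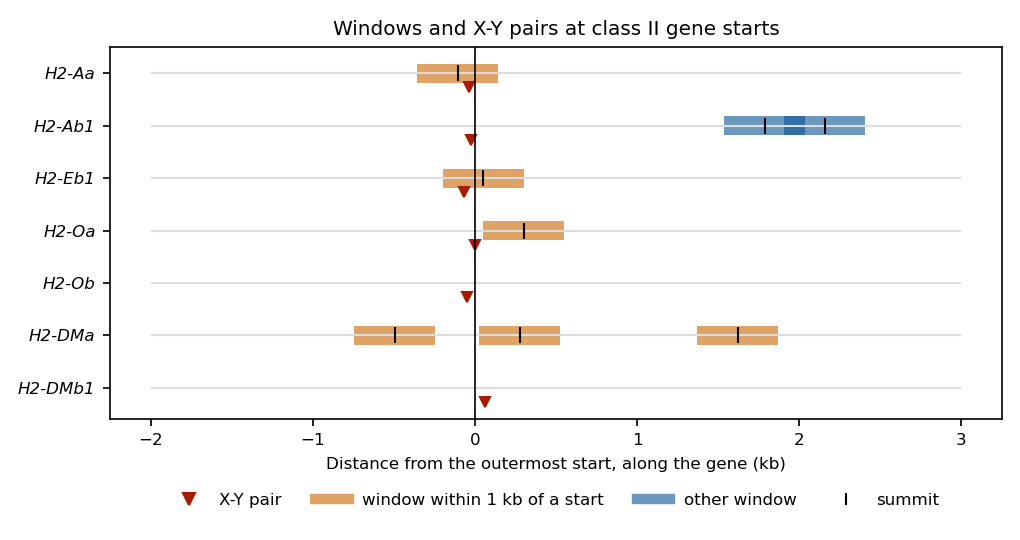
Deposited windows (boxes of 500 bp with a tick at the summit) and X-Y pairs in the relaxed wording (triangles at the end of the Y box) by distance in kb from the outermost start of 7 class II genes, positive downstream. H2-Aa and H2-Eb1 have the pair under a window, H2-Oa beside it, and H2-Ab1, H2-Ob and H2-DMb1 have a pair with no window over it.

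Of the 7 class II chain genes among the members, 6 thus had an X-Y pair near the start, and a listed window contained that pair in 2. Farther off, H2-Ab1 had a strict pair 618 bp upstream and H2-Eb1 a relaxed pair on the opposite strand 913 bp upstream, both without a window. In the textbook wording, called strict here, GCAAC is followed after 22 to 34 bases by ATTGG on either strand. So worded, a pair lay in 144 of 22225 protein-coding promoters, between 250 bp upstream and 100 bp downstream of the start (0.648%). These included H2-Aa, H2-Eb1, H2-Oa, H2-Ob and H2-Eb2. A promoter window was present at 81 of the 144 (56.2%), and at 4 of the 5 class II genes. The relaxed wording, freer in the X box but with a longer Y box, found fewer promoters, 103 (0.463%), of which 7 were class II genes. A promoter window was present at 66 of the 103 (64.1%), and at 4 of the 7 class II genes. A pair was found neither within 1 kb of the outermost start of Ciita nor at Cd74. A search for exact words can miss boxes that differ from them. The lack of a match at Ciita, Cd74 or H2-DMa therefore does not show that the boxes are absent.

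The class II genes lie together on chromosome 17. From 10 kb before H2-Oa to 10 kb after H2-Eb1 (chr17:34219285-34463144) there were 33 windows, or 13.5 per 100 kb, compared with 2.4 on chromosome 17 as a whole and 1.89 over all chromosomes with windows. The density was unequal along the region. From H2-Oa to the end of H2-DMb1 it was 19.2 per 100 kb (13 windows), from there to H2-Ob 14 (11 windows), and from H2-Ob to the end of H2-Eb1, where the classical chains lie, 9.06 (7 windows). In the next 100 kb it was 4.

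Many of these windows were nearest to genes of other functions that lie among the class II genes. Of the 33, 8 had the start of Brd2, a chromatin reader, as the nearest coding start. All 8 were among the 13 windows from H2-Oa to the end of H2-DMb1, the densest stretch. For 5 others the nearest start was that of a class I loading gene, Tap1, Tap2, Psmb8 or Psmb9. The start of a member was nearest for 14, namely H2-Ab1 and H2-DMa with 3 each and H2-Aa, H2-DMb1, H2-Eb1 and H2-Oa with 2 each, and H2-Ob with none. From the first to the last listed window of the region, 33 of 58 numbered calls were listed, and 10 more unlisted calls fell in the gaps across its edges, where they may lie inside or outside it.

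**Figure D3:**
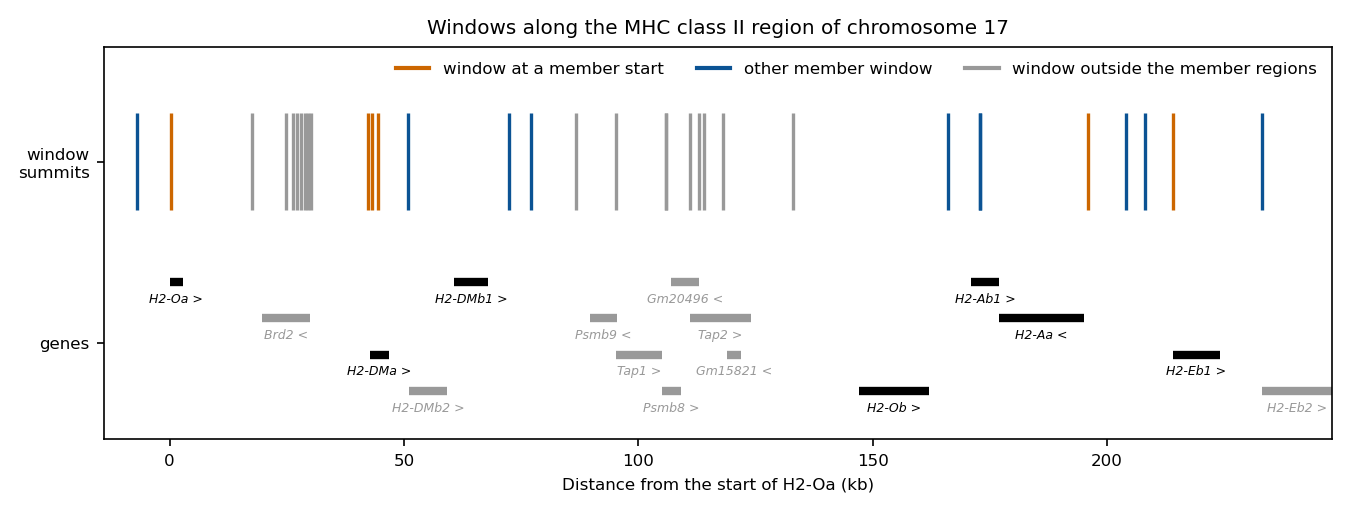
Summits of the 33 deposited windows in the class II region and the gene models beneath them, by distance in kb from the start of H2-Oa, with arrowheads beside the names for the strand. Orange marks windows at the start of a member, blue other member windows and grey windows outside the member regions, the densest group of which is at Brd2, and the stretch over H2-Ob has no summit.

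Words for other factors known from B cells, interferon responses or epithelium were counted on both strands of the 32 windows and set beside the whole list. The strict X-Y pair was in 3 of 32 (9.38%, exact 95% interval 1.98 to 25) against 0.568% of all windows, the 3 being the H2-Aa, H2-Eb1 and H2-Eb2 promoter windows. The Y box word, which is part of the relaxed pair, was in 6 (18.8%, interval 7.21 to 36.4) against 6.99%. Its share of the list's promoter windows, 9.55%, lay inside that interval. The X2 word was in 2 (6.25%) against 1.43%, at H2-Aa and Cd74. In the middle 200 bp of each window the strict pair was in 1 of 32 (3.12%, interval 0.0791 to 16.2) against 0.21% and the Y box word in 3 (9.38%, interval 1.98 to 25) against 3.38%, so that there both intervals included the share of all windows. Since the members other than Ciita are known targets of this module, these shares describe the windows and were not tested.

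The RUNX word was in 13 of 32 windows (40.6%) against 32.1% of all windows, and AP-1 in 6 (18.8%, at 6 distinct positions) against 24.8%, each background lying inside the interval of the members. The gamma-activated site word TTCNNNGAA was in 1 window, at the H2-DMb2 promoter, against 13.2%, and the interferon-stimulated word was in 2 (6.25%) against 5.74%. EBF was in 2 (6.25%) against 1.69%, TEAD (CATTCCA) in 2 (6.25%) against 8.25% and CTCF (CCANNAGNNGGC) in 2 (6.25%) against 5.52%. The NF-kB word GGGANTTTCC was in 1 (3.12%) against 0.886%. Neither the PU.1 word GAGGAAGT (4.63% of all windows) nor the octamer ATGCAAAT (2.1%) was found in any member window, and 0 of 32 allows a share of up to 10.9%. The NFI and grainyhead words, at 0.088% and 0.42% of all windows, were also at 0.

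**Figure D4:**
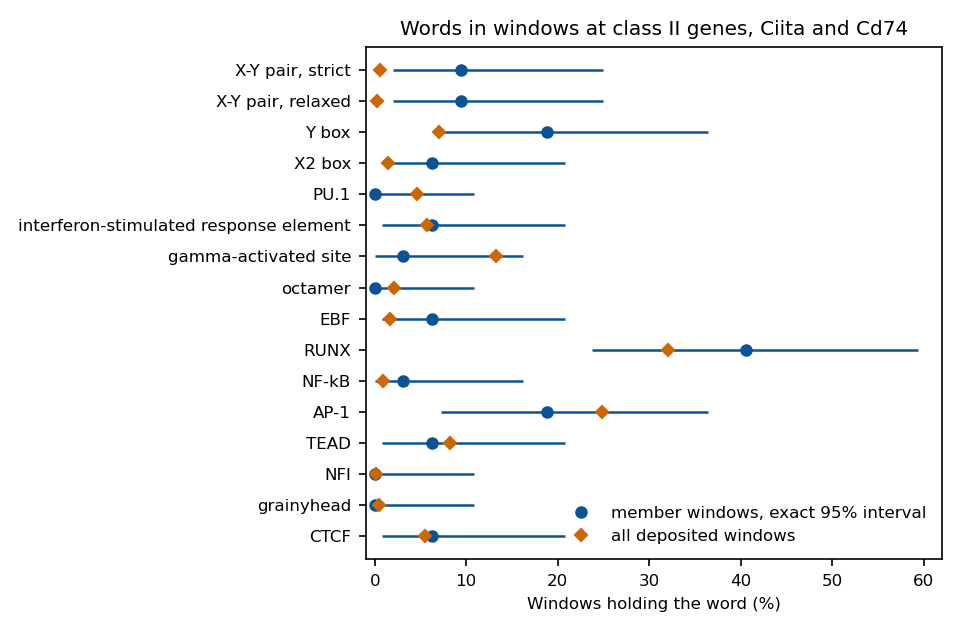
Share of windows, in percent, that hold each searched word on either strand, for the 32 windows of the 9 genes (blue circles with exact 95% intervals, counting error only) and for all 50000 windows (orange diamonds). For the X-Y pairs (9.38% against 0.568% in the strict wording) and the Y box word the interval lies above the share of all windows, and for each of the other words it includes that share. In the middle 200 bp alone it includes that share for the pairs and the Y box. For EBF there, at 6.25% against 0.73%, the interval of 0.766 to 20.8 lies just above it. None of these intervals is a test, since genes and words were chosen with earlier results known and overlapping windows count separately. The relaxed pair, which includes the Y box word, was set after the members' promoters had been seen.

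The rest of the pathway was read from lists of related genes, whose counts stand beside 48.3% of all protein-coding genes with a promoter window and 54.1% with another window. Promoter CpG differed between the lists, and 0.55 was the median ratio of all genes. A share matched for CpG was computed only for the range of the members, so 48.3% is not matched to the lists richer in CpG. Of the factors that bind the class II promoters, 6 of 7 had a promoter window, including Rfx5, Rfxank and the NF-Y subunits Nfya, Nfyb and Nfyc, while Rfxap had no window. Their median CpG ratio was 0.838. Of the genes that act upstream of Ciita, 9 of 10 had a promoter window, among them Irf1, Irf8 and Sfpi1, which encodes PU.1. Irf4 had no window, and the median ratio was 0.752. Of the genes for class II antigen processing and turnover, 8 of 10 had a promoter window, with Cd82 at 4 promoter and 11 other windows and a median ratio of 0.5 over the list. Ctss, the protease that trims the invariant chain in B cells and dendritic cells, and March1, the ligase that removes class II from the surface, had 1 other window each and none at the start.

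Class I genes and their loading genes, for comparison, had a promoter window at 11 of 12, all but H2-K1, and a median of 6 windows. Calls with several summits gave 8 of their 46 windows. A window shared by neighbours such as Tap1 and Psmb8 counted for each gene in that median and once among the 46. The median CpG ratio of the class I list, 0.632, was above the 0.19 of the members. Of the class II costimulation genes, 3 of 6 had a promoter window, Cd86, Icosl and Cd274, and Cd40, Cd80 and Pdcd1lg2 did not. The median ratio of these 6 genes, 0.336, was inside the range of the members, in which 17.0% of all genes had a promoter window.

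Markers of cells that carry class II, of T cells and of epithelium were also counted, to be set beside the same 48.3% and 54.1% of all protein-coding genes. Of 8 B cell markers, 2 had a promoter window, Cd79a and Ebf1, and 8 had another window, with Pax5 at 9. Their median CpG ratio was 0.217, inside the range of the members, in which 17.0% of all genes had a promoter window. Of 8 dendritic cell and macrophage markers, 1 had a promoter window, Cd14, and 4 another window. Itgax, Batf3, Emr1 and Lyz2 were without any, and the median ratio was 0.317, also inside that range. Of 6 T cell markers, 2 had a promoter window and 4 another window, at a median ratio of 0.292, inside that range too. Of 8 epithelial markers, 8 had a promoter window and 7 another, at a median ratio of 0.507. These counts are from the pooled list, and the part of any cell type in the class II windows was not tested.

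Cd74, the invariant chain that occupies the class II groove and guides the dimer to endosomes, lies apart from the class II region, at chr18:60963502-60972300. It had 8 windows in 28.8 kb, or 2.78 per 10 kb, the highest density of the 9 genes, which 1.42% of protein-coding genes matched or exceeded. Promoter windows had summits 274 bp upstream and 629 and 1238 bp downstream of the start, the latter 2 in an intron. Others followed at 2326 and 3115 bp in an intron, at 4100 bp in a coding exon and at 8253 bp in an intron, and the last was at 10468 bp, beyond the gene. No window covered the start itself.

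The 6 Cd74 windows nearest to the start bore consecutive call numbers, with gaps of 109 to 588 bp between them. From the first to the last of the 8 listed windows there were 9 numbered calls, and 3 more unlisted calls fell in the gaps across the edges of the region. The window upstream of the start held an EBF word 17 bp from its summit and an NF-kB word 156 bp from it, and the window at 1238 bp held the X2 word. RUNX words were in 4 of the 8 windows, 8 of them in the window at 3115 bp, where they stood in a run from 75 to 144 bp past the summit. Those centred at 97, 102, 107, 112 and 117 bp overlap their neighbours, so the 8 are not all separate sites.

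**Figure D5:**
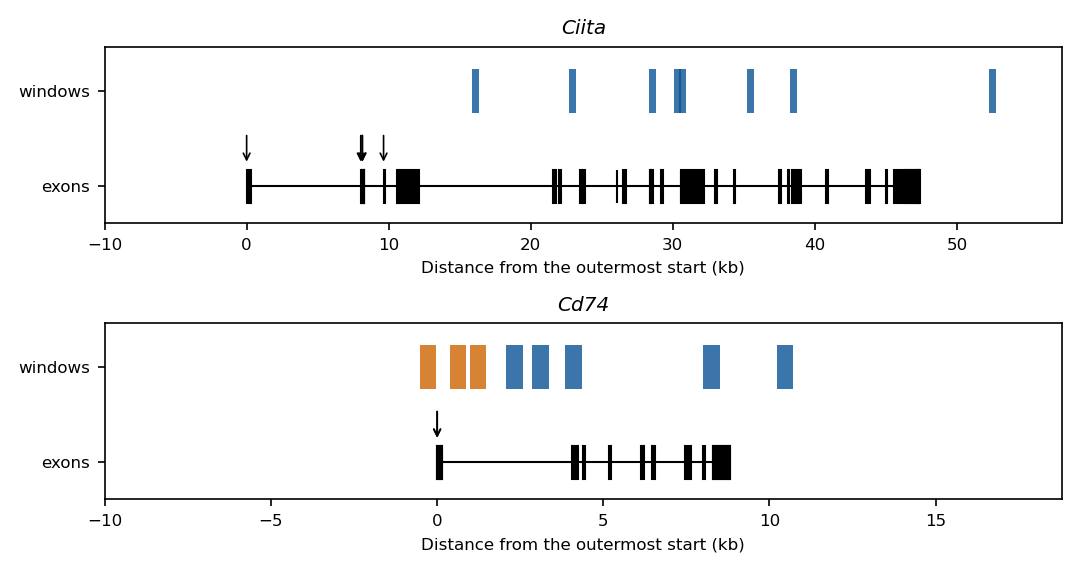
Deposited windows (boxes), annotated starts (arrows) and exons (black) of Ciita and Cd74, by distance in kb from the outermost start. The 8 Ciita windows begin at 16125 bp, past every annotated start, whereas 3 of the 8 Cd74 windows (orange) lie within 1 kb of a start.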

How the data were processed

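The methods of the study state that adapters were cut, reads aligned to mm9 (Bowtie2 2.1.0) and duplicates (Picard 1.79), mitochondrial and poorly mapped reads discarded. The authors then called summits with MACS2 (version not given in the sources used here) on the summed cells of a single condition and kept the 50000 windows with the lowest q-values. What the authors deposited, and the unit of every value here, are base positions of the windows in BED form, with no score, count or p-value, so strength and depth could not be analysed. The peak names carry words for a cell line and for all, from which the file was read as both groups pooled. The wording of the methods goes against that reading, which is not settled. Groups came from sample titles.

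Windows were joined to GENCODE models of mm9 by an overlap of at least 1 bp, and sequences were read from that genome (Python 3.11.15, pysam 0.24.0, SciPy 1.17.1, matplotlib 3.10.9). Every window ended within the length of its chromosome in that genome, which was the only check of the build. Gene models of the same symbol were merged. Call numbers missing from the list were counted between listed neighbours. Assignment and word search were tested on simulated data. Intervals are exact binomial (Clopper-Pearson) intervals.

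The members, gene lists and words were chosen with earlier results of these data known. Named are the 9 members with all their windows, coding genes nearest to a member window, and list genes without a promoter window or with the most windows. Brd2, Gm20513, the class I loading genes of the region and the other list genes were named after their values were seen. In the lists, 1 gene is not reported here and was left out of the counts. Sppl2a and Nlrc5 had no match by symbol in the annotation. Alternatives covered the start distance, flank, starts, overlap, merging, nearest gene, calls with several summits and the stretch searched for words.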

Additional observations from a re-analysis of the deposited data

How the results depend on the processing

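Counts of windows and of genes with a window at the 9 members stayed within 1.5 times of their value with a start distance of 500 bp or 2.5 kb, with the outermost start only, with an overlap of 250 bp, with overlapping windows merged and with windows kept only where the nearest coding start was a member's. At 2.5 kb, 6 members had a promoter window. Without flanks, 13 windows away from promoters remained, at 3 members, and with flanks of 50 kb there were 63 windows, 54 of them away from promoters, which follows from the length searched. Restricted to calls with several summits, each count was 0. In the middle 200 bp of the windows, the share of member windows was 0% for the gamma-activated site, 18.8% for RUNX, 0% for NF-kB and 6.25% for AP-1, against 5.13%, 15%, 0.412% and 12.5% of all windows. Both X-Y pairs fell to 3.12%, against 0.21% (strict) and 0.132% (relaxed), and the Y box to 9.38%, against 3.38%, each with an interval that includes the share of all windows. Against promoter windows the comparison share was 0.503% for the relaxed X-Y pair, 2.82% for X2, 11.9% for AP-1, 5.22% for TEAD and 0.0231% for NFI, and against other windows it was 0.196% for the relaxed pair and 0.688% for X2. Dendritic cell and macrophage markers with a promoter window numbered 0 at 500 bp and 3 at 2.5 kb. No paired analysis was possible because the data are 1 pooled list and no result came from a test. The list holds only calls past a rank, so a missing window does not show closed chromatin.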
